A study of Mus musculus with 8 samples.

Results

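The stereocilia actin bundle genes examined here were Espn, Espnl, Fscn2, Whrn, Eps8, Triobp, Pls1, Xirp2, Myo3a and Myo6. They were chosen by symbol, 10 of the 27998 genes listed, and all were found in the 8 libraries.

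Hair cells (HCs) detect sound with a bundle of stereocilia, which are membrane protrusions filled with parallel actin filaments. Cross-linking proteins such as espin, fascin 2 and plastin 1 hold the filaments together, TRIOBP packs them into the rootlet that anchors each stereocilium in the cell, and a complex of whirlin, EPS8 and myosins at the tip sets its length. Supporting cells (SCs), the Deiters' and pillar cells among them, have actin-rich surfaces but no stereocilia bundle.

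Single-cell RNA-seq had been performed on mouse organs of Corti with a 10x Genomics 3′ chemistry, and a value is a count of unique molecular identifiers (UMIs), each of which tags 1 captured transcript. Every animal carried Rosa26-CAG-loxP-stop-loxP-tdTomato+, Chrna9-GFP+, Fgfr3iCre+ and Atoh1-HA+, so the controls held the same alleles. Tamoxifen at postnatal days (P) 12 to 13 made this Cre, which is active in Deiters' and pillar cells, switch on Atoh1-HA, an HC-specifying transcription factor, in the groups Coch + Tmx P26 (n = 3 libraries) and Coch + Tmx P33 (n = 2). The groups Coch P12 (n = 2) and Coch P33 (n = 1) received no tamoxifen. Converted HCs (cHCs) are SCs that turn on HC genes after this induction. The labels do not say whether libraries pooled animals. In comparisons of groups, the p-values therefore measure the spread between libraries. In comparisons of cells within the same libraries, they measure the spread of the within-library differences.

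Libraries held 3972800 to 13423524 UMIs, and at most 3 barcodes were shared between any 2 of them. Of 5970 kept cells, 114 were cHC-like, 64 HC-like and 128 SC-like, each in 1 cluster named from marker genes, and 433 macrophage-like cells served as background. Clustering did not use the 10 bundle genes, Atoh1 or a wider list of 25 bundle genes. The cHC-like cells came from Coch + Tmx P26 rep 1 (29 cells) and rep 2 (6) and from Coch + Tmx P33 rep 1 (41) and rep 2 (38). In SC-like cells, Atoh1, the targeted gene, was at 495, 300, 402 and 637 CPM (a gene's UMIs per 1000000 UMIs of the same cells) in these 4 libraries and at 52.5, 84.4 and 30.1 CPM in the uninduced libraries. The library labelled Coch + Tmx P26 rep 3 was at 40.5 CPM and held no cHC-like cell among 584, against its label. Among the tests it entered only the fit of SC-like cells between groups, whose result is given with and without it. Coordinates are of build GRCm38.p6, matched by symbol, and whether counting used strand, which would separate overlapping genes, is not given in the sources used here. The matrices count the 3′ ends of transcripts, so isoforms of Espn, Triobp or Whrn that share a 3′ end cannot be told apart.

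Start-site windows of the bundle genes are shown because Atoh1 is a basic helix-loop-helix factor, a class that binds the E-box CANNTG, and the levels of Espn, Espnl, Fscn2 and Xirp2 carry the comparisons below. RefSeq entries for GRCm38.p6 gave 12 windows, each from 250 bases before to 50 after a start site, for 9 of the 10 genes, and none for Eps8. On either strand CANNTG lay in 7 of the 12 windows, and in 72.3% of 32851 windows of that length over all genes. The narrower form CAGNTG, every match of which is also a CANNTG, lay in 5 of the 12, in windows of Espn, Espnl, Triobp and Pls1, and in 51.4% of all windows. Matches of CAGNTG on either strand are in capitals in the 5 windows that follow. The windows of Fscn2 and Xirp2 hold no CAGNTG, and that of Xirp2 holds 2 CANNTG. A match is a description of letters and not a binding site.
Espn, start site 1 (chr4:152152340-152152639, minus strand): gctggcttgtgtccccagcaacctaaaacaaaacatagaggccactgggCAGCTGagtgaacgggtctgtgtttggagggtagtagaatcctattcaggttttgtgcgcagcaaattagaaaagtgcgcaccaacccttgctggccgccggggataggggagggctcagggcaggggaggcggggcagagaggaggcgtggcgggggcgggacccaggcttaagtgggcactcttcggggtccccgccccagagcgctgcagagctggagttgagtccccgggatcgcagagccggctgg
Espn, start site 3 (chr4:152128876-152129175, minus strand): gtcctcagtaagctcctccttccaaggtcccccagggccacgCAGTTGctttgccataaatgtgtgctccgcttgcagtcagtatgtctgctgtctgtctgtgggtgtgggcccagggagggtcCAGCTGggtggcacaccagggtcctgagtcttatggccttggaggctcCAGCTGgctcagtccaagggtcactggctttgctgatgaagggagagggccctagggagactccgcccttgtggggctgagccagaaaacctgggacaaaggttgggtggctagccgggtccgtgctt
Espnl (chr1:91321825-91322124, plus strand): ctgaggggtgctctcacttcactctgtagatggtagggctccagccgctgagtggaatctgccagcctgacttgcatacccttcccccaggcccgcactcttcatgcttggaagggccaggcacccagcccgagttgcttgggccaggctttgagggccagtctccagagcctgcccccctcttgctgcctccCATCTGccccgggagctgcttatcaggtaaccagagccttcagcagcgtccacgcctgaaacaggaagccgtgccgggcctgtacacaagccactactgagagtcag
Fscn2 (chr11:120361284-120361583, plus strand): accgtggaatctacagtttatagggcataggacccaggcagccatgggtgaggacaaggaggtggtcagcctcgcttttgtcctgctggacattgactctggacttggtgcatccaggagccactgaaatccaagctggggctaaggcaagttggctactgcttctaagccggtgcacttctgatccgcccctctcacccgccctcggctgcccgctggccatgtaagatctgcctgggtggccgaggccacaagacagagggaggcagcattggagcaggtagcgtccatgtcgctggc
Xirp2 (chr2:67445752-67446051, plus strand): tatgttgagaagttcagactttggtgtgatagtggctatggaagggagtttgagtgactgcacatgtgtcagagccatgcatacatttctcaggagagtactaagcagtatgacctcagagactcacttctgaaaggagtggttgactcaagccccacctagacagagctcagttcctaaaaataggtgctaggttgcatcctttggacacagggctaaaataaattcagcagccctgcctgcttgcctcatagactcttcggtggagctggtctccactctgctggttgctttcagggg

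Among the filament bundlers, Espn (chr4:152120331-152152414, overlapping Gm17852), whose product espin cross-links parallel actin filaments, had its highest level in the HC-like class and the next in the cHC-like class. Its level in cHC-like cells was 589 and 546 CPM in Coch + Tmx P26 rep 1 and rep 2, and 615 and 637 CPM in Coch + Tmx P33 rep 1 and rep 2. In HC-like cells of at least 5 per library it was 941 and 1309 CPM in Coch P12 and 529 and 505 CPM in Coch + Tmx P33. In SC-like cells it lay between 10.7 and 104 CPM in the 6 libraries with at least 5 such cells, with the 2 Coch + Tmx P33 libraries (104 and 65.9 CPM) above the others. No cHC-like or HC-like library of this size overlapped with any SC-like one. When each cell was thinned to 1000 UMIs, which every cell of these classes held, an Espn UMI was found in 36.8% of cHC-like, 54.7% of HC-like and 3.12% of SC-like cells. Macrophage-like cells, which should lack it, gave 0.231%, and median UMIs per cell before thinning were 12961, 7411, 14253 and 6312 in these 4 classes.

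Espnl (chr1:91322075-91348303), a relative of espin that lies in stereocilia, was the member found most in the cHC-like class: 203 of its 250 UMIs in kept cells (81.2%) came from it. Its cHC-like level was 58.9 and 159 CPM in Coch + Tmx P26 and 165 and 125 CPM in Coch + Tmx P33. In HC-like cells it was 91.4 and 12.5 CPM in Coch P12, and 34.1 and 0 CPM in Coch + Tmx P33. The SC-like cells of all libraries held 4 Espnl UMIs, all from Coch P12 rep 1, where the marker genes of HCs summed to 327 CPM in SC-like cells against at most 85.3 CPM in the other 7 libraries.

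Fscn2 (chr11:120360165-120368173), which encodes the actin cross-linker fascin 2, was split between both HC classes. It had 0 UMIs among 1792797 in SC-like cells, which allows a level of up to 1.67 CPM, and 0 among 3362941 in macrophage-like cells. In HC-like cells it was 146 and 162 CPM in Coch P12 and 111 and 108 CPM in Coch + Tmx P33, above every cHC-like library. In cHC-like cells it was 2.95 and 22.7 CPM in Coch + Tmx P26 and 80.0 and 66.0 CPM in Coch + Tmx P33. Pls1 (chr9:95752642-95845306), which encodes plastin 1, another cross-linker, was found as much in SCs as in cHCs when libraries were pooled. Its pooled level was 159 CPM in HC-like, 63.7 CPM in cHC-like and 61.4 CPM in SC-like cells, and 2 further clusters, led by Agr3 (103 CPM) and by Sprr1a (95.9 CPM), had higher values than the cHC-like cells. Triobp (chr15:78947724-79005869, overlapping Gm10865 and Mir6956), which encodes the rootlet bundler and also broadly used isoforms, was at 259 and 375 CPM in cHC-like cells of Coch + Tmx P26 and at 548 and 543 CPM in those of Coch + Tmx P33, with macrophage-like cells at 39.0 CPM.

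Of the tip and length genes, Whrn (chr4:63414908-63496083), whose product whirlin is a scaffold at the tip, gave 33 UMIs in cHC-like, 18 in HC-like and 3 in SC-like cells. Its pooled level was 20.8 CPM in cHC-like, 27.5 in HC-like and 1.67 in SC-like cells. Eps8 (chr6:137477245-137649397), which encodes an actin capping and bundling protein of the tip, was higher in several other clusters than in the HC classes: its pooled level was 17.0 CPM in cHC-like, 29.0 in HC-like, 23.4 in SC-like and 57.7 in macrophage-like cells. Only 46 of its 1338 UMIs came from cHC-like and HC-like cells, and of the 33 clusters the HC-like one ranked 9 and the cHC-like one 19, the highest being led by Dcn, Hgd and Gpr83 at 111 CPM. Xirp2 (chr2:67446000-67526620, overlapping Gm13601), which encodes an actin-binding protein of stereocilia, had 75 UMIs in the cHC-like class, 36 in the HC-like, 0 in the SC-like and 1 in the macrophage-like class. Its pooled level was 47.3 CPM in cHC-like and 54.9 in HC-like cells. Its level in cHC-like cells was 2.95 and 11.4 CPM in Coch + Tmx P26 and 52.2 and 75.2 CPM in Coch + Tmx P33.

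Of the motors, Myo3a (chr2:22227503-22618252, overlapping Gm13342), which encodes a class III myosin that moves toward stereocilia tips, had 31 UMIs in cHC-like and 14 in HC-like cells, against 0 in SC-like and macrophage-like cells. Its pooled level was 19.6 CPM in cHC-like and 21.4 in HC-like cells. Myo6 (chr9:80164976-80311729, overlapping Gm27227), an HC myosin found at the stereocilia base, was at 834 and 1569 CPM in cHC-like cells of Coch + Tmx P26 and at 1425 and 1402 CPM in those of Coch + Tmx P33. In HC-like cells it was 1594 and 1272 CPM in Coch P12 and 930 and 622 CPM in Coch + Tmx P33. In SC-like cells of at least 5 per library it ran from 92.8 to 520 CPM, so that no HC-like or cHC-like library overlapped with them. At 1000 UMIs per cell, Myo6 was found in 71.1% of cHC-like, 68.8% of HC-like, 20.3% of SC-like and 0.462% of macrophage-like cells.

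**Figure D1:**
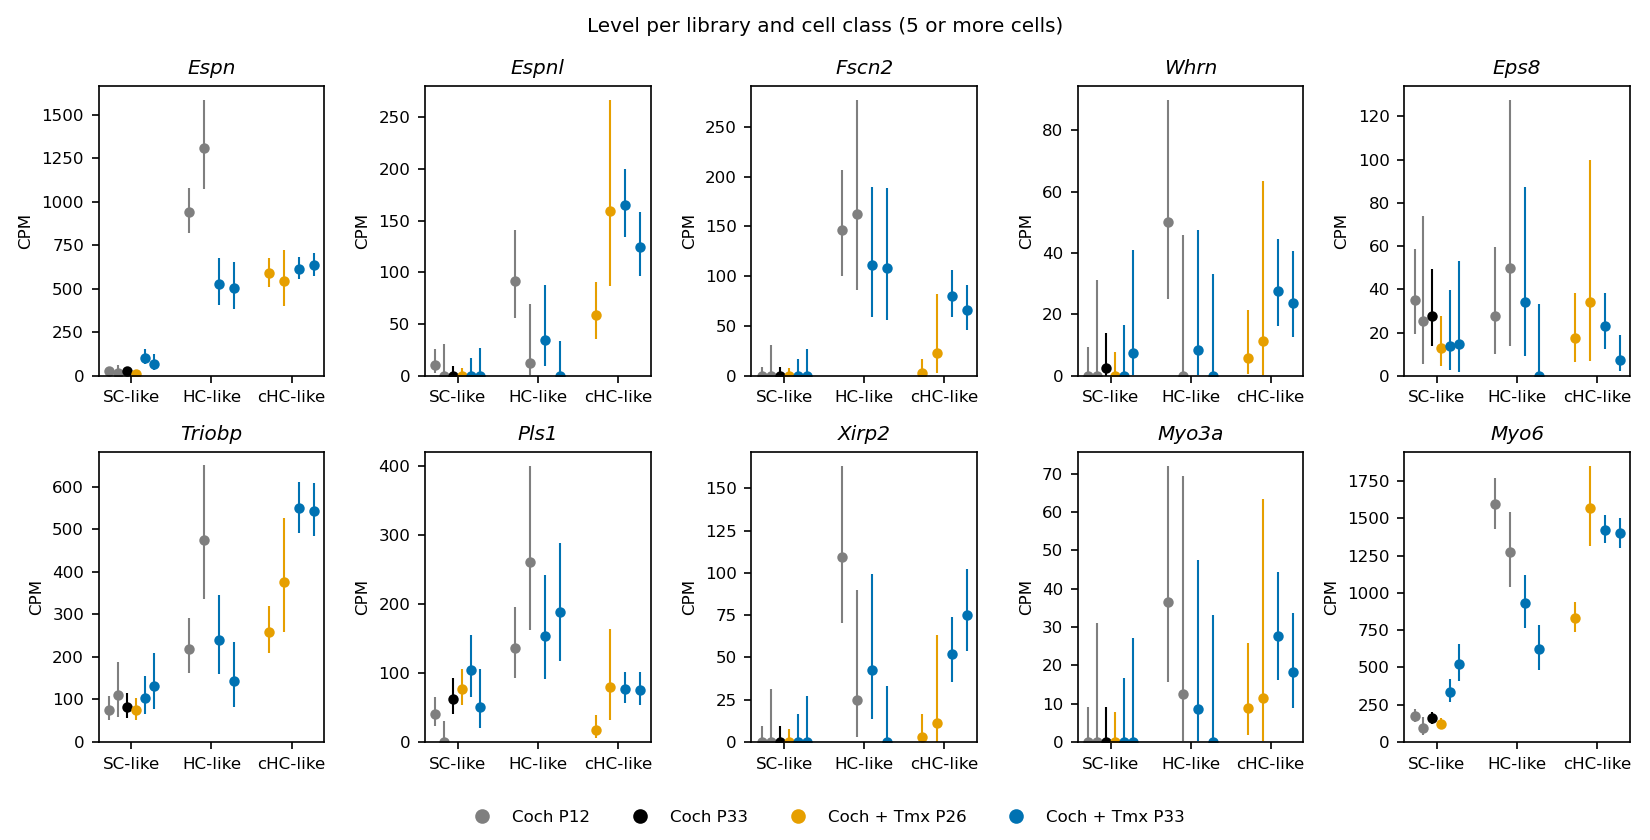
Level of each bundle gene (CPM, linear axis from 0) in SC-like, HC-like and cHC-like cells, 1 point per library with at least 5 cells of the class, coloured by group; bars are 95% exact Poisson intervals of the count. Fscn2, Xirp2 and Myo3a are at 0 in SC-like cells and Espn between 10.7 and 104 CPM, below its HC-like and cHC-like points, while the points of Eps8 overlap between all 3 classes and those of Pls1 between cHC-like and SC-like cells.

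The genes also differed in how many a cell showed at once. At 1000 UMIs, a cHC-like cell held a median of 1 of the 10 genes in both Coch + Tmx P26 libraries and of 2 in both Coch + Tmx P33 libraries. Cells with 3 or more made up 10.3% and 16.7% in Coch + Tmx P26 rep 1 and rep 2, and 39.0% and 28.9% in Coch + Tmx P33 rep 1 and rep 2. In HC-like cells the median was 2 and 3 genes in Coch P12, with 35.7% and 66.7% of cells at 3 or more, and 0 and 1 in Coch + Tmx P33, with 33.3% and 14.3%. Over all libraries 37.5% of HC-like and 27.2% of cHC-like cells had 3 or more. No SC-like cell (0 of 128, which allows up to 2.34%) and no macrophage-like cell (0 of 433, up to 0.693%) reached 3 genes at that depth. Without thinning the cHC-like means were 3.76 and 4.83 genes at P26 and 5.56 and 5.61 at P33.

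The first comparison asked which bundle genes differed between converted cells and SCs of the same libraries, the 2 Coch + Tmx P33 libraries. Of the 7 genes with enough counts to be tested, 6 were higher in cHC-like cells (Espn, Espnl, Fscn2, Triobp, Xirp2 and Myo6) and Pls1 was not called, where 20.9% of all genes tested were called higher, 17.1% lower and 38.0% in either direction (edgeR quasi-likelihood test with library as block, adjusted p under 0.05). The median log2 fold change was 2.84 over the 7 genes and 0.10 over all genes. Espnl, Fscn2 and Xirp2, at 0 UMIs in SC-like cells, passed the filter on low counts only through cHC-like cells. They could be called only higher, so the count of 6 and the median were partly set by the filter. Espn stood at 615 and 637 CPM in the cHC-like cells, above the SC-like values of 104 and 65.9 CPM, a log2 fold change of 2.84 ± 0.30 (SE, n = 2 pairs, edgeR adjusted p = 1.12e-19). Triobp rose by a log2 fold change of 2.24 ± 0.28 and Myo6 by 1.76 ± 0.23.

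Espnl, Fscn2 and Xirp2 had 169, 85 and 73 UMIs in the cHC-like cells and 0 in the SC-like cells of these libraries. Against a floor of 3 counts over both libraries they were at least 17.4-fold, 8.76-fold and 7.52-fold higher. From Coch + Tmx P33 rep 2 alone the bounds were 5.68-fold, 3.01-fold and 3.42-fold, and from rep 1 alone 12.2-fold, 5.90-fold and 3.86-fold. For Myo3a, with 27 UMIs against 0 and too few for the test, the bound was 2.78-fold, and rep 2 alone, with 10 UMIs, gave no bound above 1. Whrn had 30 UMIs against 1, a ratio of 9.27 with a 95% counting interval of 1.54 to 378, and Eps8 18 against 5, a ratio of 1.11 (0.398 to 3.83). In SC-like cells Pls1 was at 104 and 51.3 CPM, and in cHC-like cells at 76.7 and 75.2 CPM, higher in 1 pair and lower in the other.

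With 2 pairs the edgeR p-values rest on a spread shared over all genes. DESeq2 called 3 of the genes, and gave adjusted p = 0.390 for Espnl, 0.0721 for Fscn2 and 0.110 for Xirp2 (DESeq2, 2 pairs). Median mitochondrial UMI shares were 12.6% and 13.9% in the cHC-like and 5.88% and 5.34% in the SC-like cells, and their part in the differences was not tested.

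The same comparison for HC-like cells used 4 pairs of libraries, 2 of Coch + Tmx P33 and 2 of Coch P12. Of 5 genes tested, Espn, Fscn2, Triobp and Myo6 were higher in HC-like cells, where 14.3% of all genes were called higher, 9.43% lower and 23.7% in either direction, with a median log2 fold change of 2.26 over the 5 genes and −0.06 over all genes. All 5 were higher in each of the 4 pairs. The share of all genes that were so is not given, and the filter described next partly set this count. Espn, Pls1 and Fscn2, the last at 0 UMIs in SC-like cells, passed the filter on low counts only through HC-like cells. They could be called only higher, so the calls and the median were partly set by the filter. Espn differed by a log2 fold change of 4.06 ± 0.65 (SE) and Fscn2, with 70 UMIs against 0, by at least 38.8-fold. Triobp and Myo6 differed by 1.41 ± 0.35 and 2.26 ± 0.61. Pls1 differed by 1.98 ± 0.60 and missed the threshold (edgeR adjusted p = 0.0519, 4 pairs). Leaving out Coch + Tmx P33 rep 1 or Coch P12 rep 1 left 2 genes called, Triobp and Myo6 being lost.

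The genes with too few counts were Xirp2 (31 UMIs against 0, at least 17.2-fold higher), Espnl (25 against 4), Whrn (12 against 1), Myo3a (10 against 0) and Eps8 (14 against 22). Most of the HC-like UMIs of Xirp2, Espnl, Whrn and Myo3a came from Coch P12 rep 1. Without that library Xirp2 had 7 UMIs against 0 (at least 3.61-fold higher), Espnl 5 against 0 (at least 2.58-fold), Whrn 1 against 1, Myo3a 2 against 0 and Eps8 8 against 8, and the bound of Fscn2 fell to 19.6-fold. Coch + Tmx P33 rep 2 held no Xirp2 UMI in HC-like cells. Median mitochondrial UMI shares were higher in the HC-like cells of every pair, at 11.3%, 8.71%, 16.1% and 13.8% against 5.88%, 5.34%, 7.41% and 7.60%, and their part in the differences was not tested.

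Converted cells were then set against the HC-like cells of the same 2 Coch + Tmx P33 libraries. Espnl, Triobp and Myo6 were higher in cHC-like cells and Pls1 was lower, 4 of 7 genes tested, where 13.7% of all genes were called higher, 13.5% lower and 27.3% in either direction, and the median log2 fold change was 0.96 over the 7 genes and 0.06 over all genes. Triobp was at 548 and 543 CPM, and HC-like cells at 239 and 144 CPM, a log2 fold change of 1.60 ± 0.28 (SE, n = 2 pairs, edgeR adjusted p = 2.2e-05). Espnl differed by 3.13 ± 0.61, from 169 UMIs in cHC-like and 4 in HC-like cells, and Myo6 by 0.96 ± 0.19. Espnl and Xirp2 passed the filter on low counts through the cHC-like cells and could be called only higher. The count of genes called and the median were thus partly set by the filter. Pls1 was at 76.7 and 75.2 CPM, below the HC-like cells at 154 and 189 CPM, a log2 fold change of −1.08 ± 0.37 (edgeR adjusted p = 0.0264, 2 pairs). Espn differed by 0.36 ± 0.22 (edgeR adjusted p = 0.243), Fscn2 by −0.50 ± 0.40 (0.401) and Xirp2 by 1.59 ± 0.69 (0.0831), and none of these was called. Too few for the test were Whrn (30 UMIs against 1), Myo3a (27 against 1) and Eps8 (18 against 4). The sums behind these counts were unequal, at 1157723 UMIs in cHC-like and 228090 in HC-like cells. Per UMI of each sum, the ratio was 5.91 for Whrn (counting interval 0.983 to 241) and 5.32 for Myo3a (0.877 to 218). For Eps8 it was 0.887 (0.292 to 3.60). Each of these intervals includes 1.

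These calls depended on the tool and on few cells. DESeq2 called 1 of the 4, and with doublets kept, which changed the HC-like class from 64 to 66 cells, edgeR called 0. Other measurements moved with the HC-like cells. Their SC marker genes summed to 18149 and 22155 CPM in the Coch + Tmx P33 libraries, near the 25187 and 21839 CPM of SC-like cells there and above the 4136 and 6359 CPM of cHC-like cells, with 11 and 9 of the 12 markers detected. Single SC markers did not all follow these sums. In HC-like against SC-like cells, Fgfr3 was 25.6 and 0 against 425 and 674 CPM, and Prox1 34.1 and 0 against 81.3 and 44.0 CPM. Both were higher in the cHC-like cells, Fgfr3 at 201 and 446 CPM and Prox1 at 113 and 101 CPM. The other SC markers are not given singly. HC marker genes of the HC-like cells of Coch + Tmx P33 summed to 6445 and 4561 CPM, below the 7783 and 8549 CPM of the cHC-like cells of the same libraries and below the 23138 and 36384 CPM of the HC-like cells of Coch P12. Single HC markers did not all follow these sums. In HC-like against cHC-like cells, Ocm was 4012 and 1965 against 3.26 and 0 CPM, and Otof 555 and 532 against 53.9 and 101. Slc17a8 was 265 and 586 against 0 and 1.83, and Slc26a5 17.1 and 0 against 0 and 5.50. The other HC markers are not given singly. Of the Coch P12 sums, Ocm alone made 17382 and 30773 CPM. Median mitochondrial UMI shares of the HC-like cells of Coch + Tmx P33 were 11.3% and 8.71% against 12.6% and 13.9% in the cHC-like cells. In addition, 10 of these 16 HC-like cells had more UMIs of Slc17a8, an inner HC gene, than of Ocm, an outer HC gene. Their part in the differences was not tested.

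**Figure D2:**
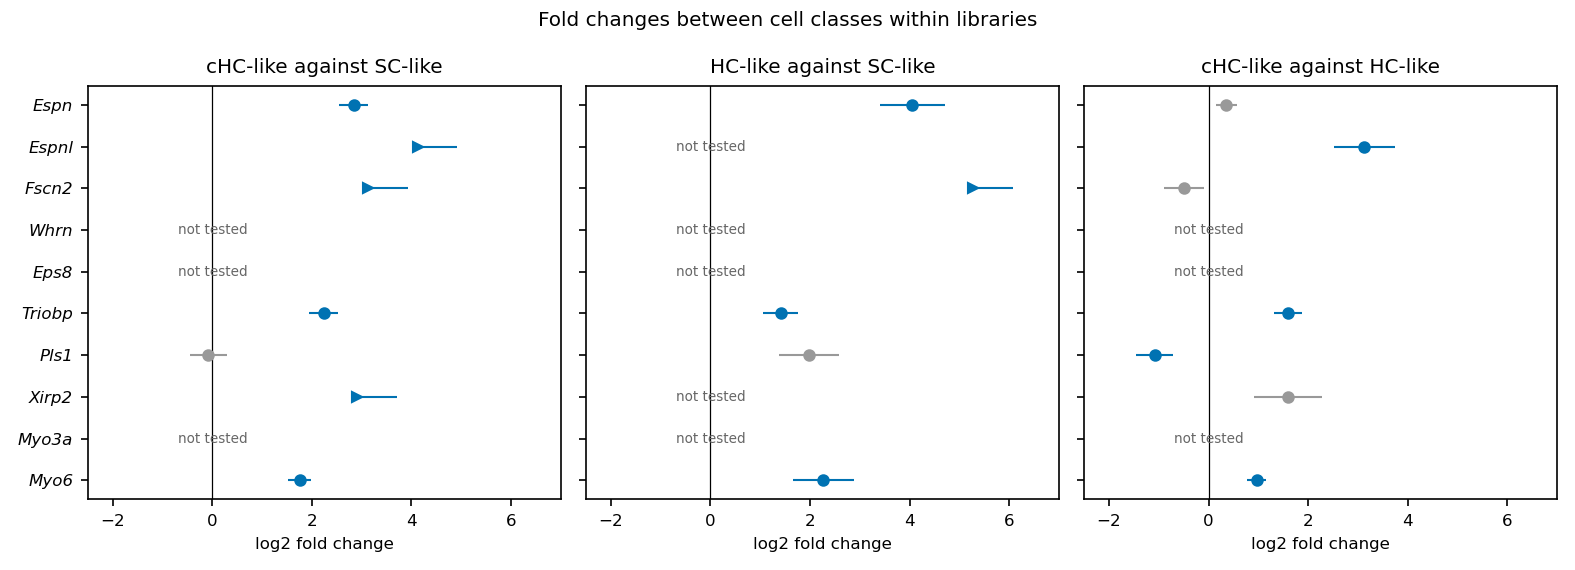
Log2 fold change of each bundle gene between classes of the same libraries, with SE bars; blue marks adjusted p under 0.05, grey no call. Triangles with a line to the right are lower bounds, from genes at 0 UMIs in SC-like cells; bounds of Espnl, Fscn2 and Xirp2 are shown in place of the fitted values.

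Inner and outer HCs build bundles of different shape, and the HC-like cells differed along this line. Cells with more Ocm than Slc17a8 UMIs numbered 40 and those with more Slc17a8 numbered 23. Within 1 library, Coch P12 rep 1, Espn was 1430 CPM (95% counting interval 1216 to 1671) in 17 cells of the first kind and 419 CPM (305 to 563) in 10 of the second. Espnl was 172 CPM in the first and 9.53 CPM in the second, and Myo6 2055 and 1115 CPM. Whrn ran the other way, at 9.05 and 76.3 CPM, and so did Myo3a, at 0 and 76.3 CPM (0 and 8 UMIs). Xirp2 was at 109 and 114 CPM. These are values of 1 library and were not tested.

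The third question was how the bundle genes of cHC-like cells differed with time after induction. Fscn2 and Xirp2 were higher in Coch + Tmx P33 than in Coch + Tmx P26, 2 of 9 genes tested, where 1.36% of all genes were called higher, 1.04% lower and 2.41% in either direction. Fscn2 was 2.95 and 22.7 CPM (1 and 2 UMIs) in Coch + Tmx P26 rep 1 and rep 2, and 80.0 and 66.0 CPM (49 and 36 UMIs) in Coch + Tmx P33 rep 1 and rep 2. The log2 fold change was 3.24 ± 0.65 (SE, n = 2 against 2, edgeR adjusted p = 0.0328). Xirp2 was 2.95 and 11.4 CPM (1 UMI each) in Coch + Tmx P26 and 52.2 and 75.2 CPM (32 and 41 UMIs) in Coch + Tmx P33, a difference of 3.60 ± 0.70 (edgeR adjusted p = 0.0309, 2 against 2). Both P33 libraries lay above both P26 libraries for each gene. With 1 or 2 UMIs per P26 library, both genes passed the filter on low counts through the P33 libraries and could be called only higher. The same holds for Whrn, given below, with 3 UMIs at P26, so the median given there was partly set by the filter.

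The other 7 genes tested were not called. Espn, at 589 and 546 CPM against 615 and 637 CPM, differed by 0.11 ± 0.25 and Myo6 by 0.27 ± 0.29. Triobp was at 259 and 375 CPM against 548 and 543 CPM, with a difference of 0.81 ± 0.26 (edgeR adjusted p = 0.128, 2 against 2), and Whrn differed by 1.77 ± 0.71, Pls1 by 1.17 ± 0.50, Espnl by 0.68 ± 0.40 and Eps8 by −0.52 ± 0.71. Myo3a, not tested, had 27 UMIs at P33 and 4 at P26, a ratio of 2.49 (95% counting interval 0.868 to 9.80). The median was 0.81 over the 9 genes and 0.02 over all genes.

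The calls of Fscn2 and Xirp2 rested on few libraries and cells. Without Coch + Tmx P26 rep 1, which leaves 1 library of 6 cells at P26, edgeR called 0 of the genes and Fscn2 differed by 1.76 and Xirp2 by 2.53 (adjusted p = 0.499 and 0.491). Without Coch + Tmx P33 rep 2, Xirp2 missed the threshold at 3.33 (adjusted p = 0.0693), and DESeq2 called 0 genes. Cells under 10% mitochondrial UMIs numbered 11 of 41 and 11 of 38 in the Coch + Tmx P33 libraries but 26 of 29 and 6 of 6 in Coch + Tmx P26. In those cells Fscn2 was 30.1 and 14.8 CPM at P33 (3 and 2 UMIs) and 3.12 and 22.7 CPM at P26, Xirp2 was 10.0 and 0 CPM at P33 and 3.12 and 11.4 CPM at P26, and neither had enough counts for the test.

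**Figure D3:**
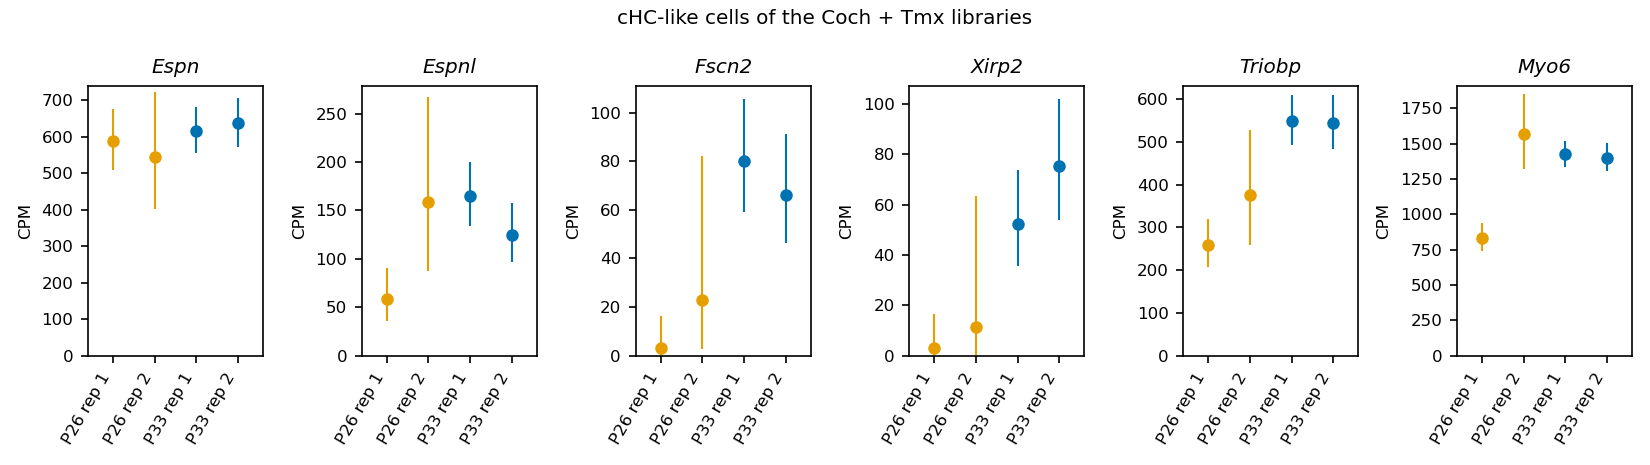
Levels (CPM, linear axes from 0) of 6 bundle genes in cHC-like cells of each Coch + Tmx library at P26 (orange) and P33 (blue); bars are 95% exact Poisson intervals. Fscn2 and Xirp2 lie under 23 CPM in both P26 libraries and over 52 CPM in both P33 libraries, while Espn lies between 546 and 637 CPM in all 4.

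The cHC-like cells differed among themselves. Pou4f3, an HC transcription factor and one of the cHC markers, had a UMI in 12 of 29 and 4 of 6 cells in Coch + Tmx P26 and in 28 of 41 and 25 of 38 in Coch + Tmx P33. Between cells with and without a Pou4f3 UMI in the 3 libraries with at least 5 of each, Espn, Espnl and Myo6 were higher in cells with one, 3 of 5 genes tested, where 10.1% of all genes were called higher, 9.24% lower and 19.3% in either direction. The median was 0.83 over the 5 genes and 0.00 over all genes. Espnl was 123, 212 and 164 CPM in cells with a Pou4f3 UMI and 14.9, 45.9 and 25.8 CPM in those without, in Coch + Tmx P26 rep 1, P33 rep 1 and P33 rep 2, a log2 fold change of 2.53 ± 0.37 (SE, n = 3 pairs, edgeR adjusted p = 0.000353). Espnl passed the filter on low counts only through the cells with a Pou4f3 UMI and could be called only higher. The count of 3 and the median were therefore partly set by the filter. Espn was 988, 710 and 692 CPM against 314, 378 and 497 CPM, a difference of 0.99 ± 0.23, and Myo6 differed by 0.83 ± 0.19.

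Xirp2 and Fscn2 followed the same split with too few counts for the test. Xirp2 had 74 UMIs in the cells with a Pou4f3 UMI and 0 in those without, at least 13.5-fold higher against a floor of 3 counts over the 3 libraries. Fscn2 had 84 against 2, a ratio of 23.0 (95% counting interval 6.18 to 193), Myo3a 28 against 2, a ratio of 7.67 (1.94 to 66.5), Whrn 29 against 3, a ratio of 5.30 (1.64 to 27.2), and Eps8 16 against 8, a ratio of 1.10 (0.443 to 2.96). With 1 library left out, the bound of Xirp2 ran from 7.15-fold, without Coch + Tmx P33 rep 2, to 9.67-fold. Without Coch + Tmx P33 rep 1 the ratio of Fscn2 was 11.8 and that of Myo3a 3.70, and without rep 2 Fscn2 had 50 UMIs against 0 (at least 10.8-fold higher). Triobp differed by 0.39 ± 0.21 and Pls1 by −0.44 ± 0.38, and neither was called. Within cells with a Pou4f3 UMI, Fscn2 was 7.21 and 29.3 CPM in Coch + Tmx P26 rep 1 and rep 2 and 112 and 87.1 CPM in Coch + Tmx P33, and Xirp2 was 7.21 and 14.6 CPM against 73.0 and 105 CPM. These differences by age were not tested. Without Coch + Tmx P26 rep 1, 5 of 7 genes tested were called, and without Coch + Tmx P33 rep 1 or rep 2 the Myo6 call was lost (edgeR adjusted p = 0.0671 and 0.0691). Detecting Pou4f3 also depends on depth: median UMIs per cell were 8030, 13059 and 15318 with a Pou4f3 UMI and 10903, 12312 and 11984 without. Median mitochondrial UMI shares were 6.48%, 14.7% and 14.4% with and 6.48%, 12.1% and 9.09% without, and the part of either in the differences was not tested.

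**Figure D4:**
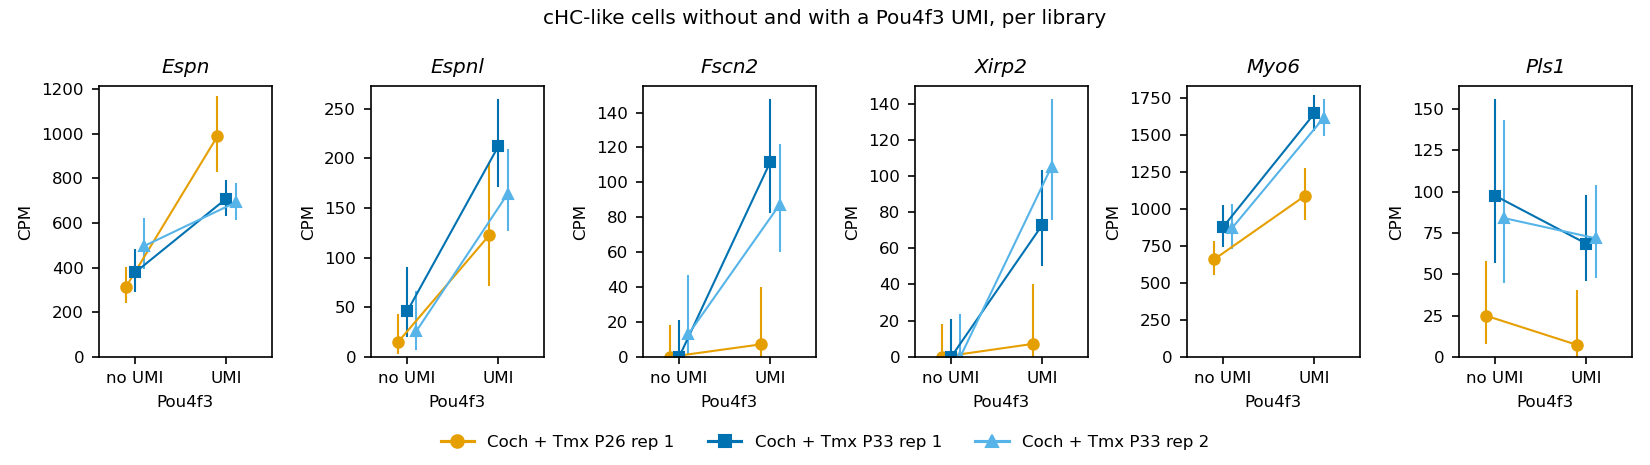
Levels (CPM, linear axes from 0) of 6 bundle genes in cHC-like cells without and with a Pou4f3 UMI, 1 line per library, with 95% exact Poisson intervals. Espn, Espnl, Fscn2, Xirp2 and Myo6 are higher with a Pou4f3 UMI in all 3 libraries, and Pls1 is lower in all 3; Fscn2 and Xirp2 stay under 8 CPM in the P26 library.

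Set against Coch P12, the HC-like cells of Coch + Tmx P33 gave 0 called of 5 genes tested by edgeR, where 6.64% of all genes were called higher, 5.94% lower and 12.6% in either direction. Of these 5, 2 had an unadjusted p under 0.05, as had 631 of all 2139 genes tested, and DESeq2 called 0. The medians were −0.82 over the 5 genes and 0.02 over all genes. Espn was 529 and 505 CPM in Coch + Tmx P33 and 941 and 1309 CPM in Coch P12, a log2 fold change of −1.15 ± 0.35 (edgeR adjusted p = 0.0613, 2 against 2). Myo6 was 930 and 622 CPM against 1594 and 1272 CPM, a difference of −0.91 ± 0.35. Triobp differed by −0.82 ± 0.49, Fscn2 by −0.50 ± 0.43 and Pls1 by −0.16 ± 0.45. The 5 genes with too few counts, from sums of 228090 and 299102 UMIs, were Xirp2 (5 UMIs in Coch + Tmx P33 against 26 in Coch P12), Espnl (4 against 21), Whrn (1 against 11), Myo3a (1 against 9) and Eps8 (4 against 10). Of the Coch P12 UMIs, rep 1 held 24 for Xirp2, 20 for Espnl, 11 for Whrn, 8 for Myo3a and 6 for Eps8. Leaving out Coch P12 rep 1, with 28 of the 34 P12 cells, gave 2 calls, Espn at −1.43 and Triobp at −1.38, and leaving out Coch P12 rep 2 gave 1, Myo6 at −1.10. SC marker genes summed to 5788 and 2294 CPM in the P12 HC-like cells against 18149 and 22155 CPM in those of Coch + Tmx P33, and 23 of the 34 P12 cells but 6 of the 16 P33 cells had more Ocm than Slc17a8. HC marker genes summed to 23138 and 36384 CPM at P12 against 6445 and 4561 CPM. Of these sums, Ocm made 17382 and 30773 CPM at P12 and 4012 and 1965 CPM at P33. Age and induction cannot be told apart here, nor can the mix of cells.

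In SC-like cells, Myo6 was higher in Coch + Tmx P33 than in Coch P12, 1 of 5 genes tested, where 3.27% of all genes were called higher, 2.94% lower and 6.21% in either direction. It was 339 and 520 CPM against 175 and 92.8 CPM, a log2 fold change of 1.57 ± 0.40 (edgeR adjusted p = 0.012, 2 against 2). The only library of Coch P33, of the same age without tamoxifen, was at 158 CPM, and Coch + Tmx P26 rep 3 as labelled was at 124 CPM. The other 2 Coch + Tmx P26 libraries, with 3 and 2 cells, were at 389 and 400 CPM. In the macrophage-like background, Myo6 was 83.7 and 15.8 CPM in Coch + Tmx P33 and 10.7 and 5.68 CPM in Coch P12. It was 40.6 CPM (3 UMIs) there in Coch P33, and the part of background in the difference was not tested. Espn was 104 and 65.9 CPM against 27.5 and 16.9 CPM and was not called (1.82 ± 0.60, edgeR adjusted p = 0.0677), with Coch P33 at 25.1 CPM. Pls1 differed by 1.51 ± 0.61, Triobp by 0.39 ± 0.45 and Eps8 by −1.16 ± 0.96, and none was called. Espnl had 0 UMIs against 4 and Whrn 1 against 0, while Fscn2, Xirp2 and Myo3a had 0 in both groups. The medians were 1.51 over the 5 genes and −0.03 over all genes. The Myo6 call was lost without Coch + Tmx P33 rep 2 (1.29, adjusted p = 0.203) and under DESeq2 (adjusted p = 0.22), and it held when the library with the doubtful label was left out (1.54, adjusted p = 0.0137). Without Coch P12 rep 1 there were 2 calls, Pls1 being the other, from 0 Pls1 UMIs in the remaining Coch P12 library.

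Other genes of the bundle were counted from a list of 25 found in the files. Of 19 tested, 10 were higher in cHC-like than in SC-like cells and 2 lower, where 20.9% of all genes were called higher and 17.1% lower, and the median log2 fold change was 4.07 over the 19 and 0.10 over all genes. DESeq2 called 4 of the 19. Genes at 0 UMIs in SC-like cells passed the filter on low counts only through cHC-like cells and could be called only higher. The count of 10 and the median include them. The 6 with the largest fitted changes, all at 0 UMIs in SC-like cells, were Myo15, which encodes the motor that carries whirlin and EPS8 to the tip (209 UMIs against 0, at least 21.5-fold), Twf2 (117 against 0, at least 12.1-fold), Grxcr1 (113 against 0, at least 11.6-fold), Baiap2l2 (51 against 0, at least 5.26-fold), Myo3b (47 against 0, at least 4.84-fold) and Elmod1 (44 against 0, at least 4.53-fold). The counts do not set the size of a change over 0 UMIs, so these 6 are not the largest for certain. From Coch + Tmx P33 rep 2 alone, their bounds ran from 1.67-fold to 9.18-fold. The other genes called, named after their values were seen, were Myo7a, an HC myosin, with 220 UMIs against 1, a ratio of 68.0 (95% counting interval 12.1 to 2698), Eps8l2 with 111 against 2, a ratio of 17.2 (4.64 to 143), Ptprq (37 against 0), Gpsm2 (35 against 0), and the lower genes Fscn1, a fascin of many cell types, by −3.23 ± 0.33 and Gnai3 by −0.89 ± 0.36.

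Between HC-like and SC-like cells only 8 of the 25 had enough counts for the test. Of these, 2 were higher, Lcp1 (1.58) and Rdx (1.34), and Fscn1 was lower (−5.14), where 14.3% of all genes were called higher and 9.43% lower. DESeq2 called 3 of the 8. Among the 17 not tested, and named after their values were seen, Elmod1 had 92 UMIs against 1, Clic5 74 against 8, Twf2 70 against 7, Ptprq 60 against 2, Myo7a 56 against 4 and Myo15 52 against 1, each higher in all 4 pairs. The counts of called genes in HC-like and cHC-like cells therefore cover different parts of the list. The share of all genes that were higher in all 4 pairs is not given.

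Of 20 tested, 6 were higher in cHC-like than in HC-like cells and 3 lower, where 13.7% of all genes were called higher and 13.5% lower. They were led by Lcp1 (−4.03), Fam65b (3.05), Tprn (2.71), Grxcr1 (2.22), Myo15 (1.57) and Elmod1 (−1.24), and DESeq2 called 0 of these 20. Lcp1, which encodes plastin 2, is also a leukocyte gene. By age, edgeR called 0 of 20 in cHC-like cells, where 2.41% of all genes were called, and DESeq2 also called 0. An unadjusted p under 0.05 was found for 4 of the 20, and for 1158 of all 6318 genes tested. With against without a Pou4f3 UMI, 4 of 12 were higher and 1 lower, where 10.1% of all genes were called higher and 9.24% lower, and DESeq2 called 5. The higher ones were Myo15 (238 UMIs against 0, at least 43.5-fold, and at least 27.7-fold with 1 library left out), Grxcr1 (5.72 ± 0.69), Twf2 (4.08 ± 0.56) and Eps8l2 (3.16 ± 0.50), and Fscn1 was lower (−6.14 ± 0.68). Myo15, at 0 UMIs on the other side, passed the filter only through cells with a Pou4f3 UMI and could be called only higher. Fitted levels of Grxcr1, Twf2 and Eps8l2 were also far lower on the other side, so the filter favoured higher calls for them too. Clic5 was lower in the HC-like cells of Coch + Tmx P33 than of Coch P12 (−2.28), 1 of 13, where 5.94% of all genes were called lower. Lcp1 was lower in the SC-like cells (−2.38), 1 of 12, where 2.94% were. DESeq2 called 0 of the list in both of these comparisons.

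Over 46 sums of a named class in a library, the genes whose log2 level was most like the mean standardised level of the 10 genes were Chrna10 (Pearson r = 0.94), Tomt (0.94), Lrtm2 (0.93), Kncn (0.93), Kcna10 (0.93), Palm3 (0.93), Defb25 (0.93) and B3gnt4 (0.93), of 11467 genes considered. Chrna10 encodes a subunit of the acetylcholine receptor of HCs, and Tomt is needed for mechanotransduction. Among pairs of members, Fscn2 and Xirp2 were the most alike (r = 0.97) and Eps8 and Pls1 the least (r = −0.17). Few of the 46 sums were of HC classes. They were Coch P12 rep 1 (28 cells) for HC-like cells, and Coch + Tmx P26 rep 1 (29), P33 rep 1 (41) and P33 rep 2 (38) for cHC-like cells. Fscn2 and Xirp2 had few or no UMIs in the other named classes, so their r mostly sets these sums against values near 0. A gene found mainly in the HC classes would rank high in likeness by the same route. These correlations describe sums that share libraries and depth, and have no p.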

How the data were processed

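The deposited files held unnormalised UMI counts per gene and barcode, which the authors made with Cell Ranger (version not given in the sources used here) on build mm10. Barcodes with fewer than 500 genes (1954 of 8061) or at least 25% mitochondrial UMIs (84) and 53 likely doublets (scrublet, highest scores, 0.8% per 1000 barcodes) were left out. Cells were clustered with scanpy 1.11.5 and igraph 0.11.9 (2000 variable genes without the members and lists, 30 components, 15 neighbours, Leiden resolution 1.0, best modularity of 20 seeds). A cluster was named when at least 3 of a type's markers, and no fewer than those missing, were 3-fold higher in it and in 10% of its cells, with 1 or more among its 10 leading genes; this rule was set after the clusters were seen. Of 33 clusters, 13 were named.

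Counts were summed per library and class of at least 5 cells, and tested with edgeR 4.0.16 (R 4.3.3; TMM, filterByExpr, Benjamini-Hochberg adjustment over all genes, threshold 0.05), with library as block between classes and all groups with enough cells in 1 fit between groups. DESeq2 1.42.0 was an alternative. Fold changes are log2, and the SE was derived from the F statistic. The scripts were tested on simulated counts with 200 changed genes. CPM intervals (95%, exact Poisson) cover counting error only. The groups compared share replicate numbers that name no shared animal or batch. The members and lists were chosen with earlier results of these data known. All 10 members are given in each comparison, those with too few counts as UMIs. Of the wider list the rule named up to 6 genes with the largest fitted changes past the threshold, and 8 genes were named by likeness, on log2(CPM + 10) over sums of at least 10 cells and a mean of at least 5 CPM. Coordinates and sequences are from RefSeq, GRCm38.p6, matched by symbol.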

Additional observations from a re-analysis of the deposited data

How the results depend on the processing

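Counts of called members depended on the tool, the filter and single libraries. DESeq2 called 3 of the 7 genes tested between cHC-like and SC-like cells (edgeR 6), 1 between cHC-like and HC-like cells (edgeR 4), 0 in cHC-like cells by age (edgeR 2) and 0 in SC-like cells between groups (edgeR 1); over all genes it called 389, 287, 50 and 83 where edgeR called 2195, 1492, 152 and 370. Without a filter on low counts edgeR called 7 members between HC-like and SC-like cells, 2 between cHC-like and HC-like cells and 5 by Pou4f3. With doublets kept it called 0 between cHC-like and HC-like cells, and in an unpaired fit of all libraries, added after seeing the data, 1. Cells under 10% mitochondrial UMIs gave 0 calls by age and 2 in SC-like cells between groups, and the summed level of the 10 genes in Coch + Tmx P33 fell from 3006 to 2066 CPM in cHC-like and from 1830 to 1344 CPM in HC-like cells. With the members among the clustering genes, the cHC-like class held 79 cells and the SC-like class 163, and 2 members were called between HC-like and SC-like cells and 0 in SC-like cells between groups. The cause of these changes was not tested.

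Leaving out 1 library at a time gave 2 to 4 calls between HC-like and SC-like cells, 0 to 3 in cHC-like cells by age (0 without Coch + Tmx P26 rep 1), 0 to 2 in HC-like and 0 to 2 in SC-like cells between groups, and 2 to 5 by Pou4f3. With 2 pairs it could not be fitted for cHC-like against SC-like or HC-like cells. A minimum of 10 cells or 10% mitochondrial UMIs left too few libraries for the comparisons with HC-like cells, and the Pou4f3 split gave no value with 10% mitochondrial UMIs or the members clustered.

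With replicate number as a replicate block, SC-like cells between groups gave 2 calls in place of 1. The block left the member counts of the other comparisons between groups as they were. Deviations of same-numbered libraries had correlations of −0.0341, −0.0968 and 0.0844 over genes. Each rests on 1 difference per group from sums of few cells, so it cannot exclude a shared batch.

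Of the values for single members under these alternatives, 401 kept direction and side of the threshold, 32 lost a call and 17 gained one. The 16 that turned direction were of uncalled differences. Pls1 between cHC-like and SC-like cells became 0.052 with DESeq2, 0.019 without the filter, 0.12 with doublets and 0.14 in an unpaired fit that also left out the library with the doubtful label. Espn between cHC-like and HC-like cells became −0.19 with doublets and −0.52 unpaired. By age in cHC-like cells, Espn became −0.015 with at least 10 cells, −0.41 under 10% mitochondrial UMIs and −0.45 with the members clustered, and Myo6 −0.44 under 10%. With 1 library left out, values by age ran from −0.015 to 0.29 for Espn, −0.042 to 1.20 for Espnl, −1.04 to 0.036 for Eps8 and −0.061 to 0.66 for Myo6. Pls1 in HC-like cells ran from −0.70 to 0.26, and Triobp in SC-like cells from −0.042 to 0.66.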

Other observations

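Several of the 10 genes were also found outside the HC lineage. Triobp was at 178 CPM in the neutrophil-like cluster (81 UMIs in 72 cells), next after the HC classes, and at 157 CPM in a cluster of 41 cells led by Ly6a, Cxcl10 and Ifit3. Myo6 was at 271 CPM in the cluster led by Dcn, Hgd and Gpr83 (429 cells) and at 235 CPM in the cluster led by Kcnk3, Mmp11 and Otor (705 cells), above its pooled SC-like level of 205 CPM. Espn was at 56.6 CPM in the neuron-like cluster (128 UMIs in 95 cells), above its SC-like level of 35.1 CPM. Whrn, at 27.5 CPM in HC-like and 20.8 CPM in cHC-like cells, was next highest at 16.4 CPM in a cluster led by Fxyd2, Otos and Hhatl (135 cells).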
